A study of Mus musculus with 4 samples.

Results

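Of 20437 cell barcodes in 4 single-cell RNA libraries from mouse brain, 1119 (5.48%) were microglia barcodes with a high mitochondrial share. A barcode was taken when it had at least 500 unique molecular identifiers (UMIs, 1 for each captured RNA molecule), over 10% of them from the 13 genes of the mitochondrial genome, and at least 30 UMIs per 10000 UMIs outside these genes from 6 microglia markers, P2ry12, Tmem119, Siglech, Fcrls, Olfml3 and Selplg. The comparison class was the 14295 microglia barcodes of the same libraries at 10% or less. Another 916 barcodes over 10% missed the marker threshold and are not described. The barcodes were chosen by their measured mitochondrial share, UMI total and marker level, so these are given without a test, and every test rests on UMIs outside the mitochondrial genes.

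All mice carried Tmem119-2A-CreERT2, which puts an inducible Cre under the control of the microglia gene Tmem119, and the Ai6 reporter, which makes the green protein ZsGreen once Cre has acted. For stroke, the middle cerebral artery of the right side was ligated for good (pMCAO), and sham mice were operated in a like way with no ligation. On day 3 the hemisphere of the operated side was dissociated mechanically, microglia were enriched on a Percoll gradient, and the sort took living cells with ZsGreen fluorescence for 10x Genomics 3' libraries. Each library was a pool of 4 mice, and there was 1 pool each of female sham (F_Sham), female stroke (F_Stroke), male sham (M_Sham) and male stroke (M_Stroke). Age and the tamoxifen schedule are not given in the sources used here. With 1 pool for each sex and treatment, a p-value measures at most the spread between pools, and the variation between mice is unknown. In the edgeR fits over 4 pools that spread came from a trend shared over genes, not from each gene's own values (median prior degrees of freedom infinite).

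Microglia are the resident macrophages of the brain. The mitochondrial genome encodes subunits of respiratory complexes I, III and IV and of ATP synthase, while all other mitochondrial proteins are made from nuclear genes and imported. In droplet libraries the mitochondrial share of a barcode is widely used as a quality measure, since a cell whose membrane leaks can lose cytoplasmic RNA and keep its mitochondria, but a high share can also belong to an intact cell that is rich in mitochondrial RNA.

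The pools held 29581392 to 66072270 UMIs. The lowest UMI total of a barcode was 500 in F_Sham, 501 in F_Stroke and 500 in M_Stroke, but 4198 in M_Sham, so the pools did not share a UMI minimum. A total of 43 barcode sequences occurred in more than 1 pool, and 3 of the 1119 barcodes were among them. No doublet caller was run, and barcodes that hold RNA of another cell type are described where they touch a result.

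The stroke pools held 1033 of the 1119 barcodes (92.3%). Barcodes over 10% made up 13.8% of the microglia barcodes in F_Stroke (572 barcodes, exact binomial 95% interval 12.8 to 14.9%) and 12.3% in M_Stroke (461 barcodes, 11.3 to 13.4%). They made up 2.44% in F_Sham (82 barcodes, 1.94 to 3.01%) and 0.0961% in M_Sham (4 barcodes, 0.0262 to 0.246%). These intervals cover counting error only. When all pools were held to the UMI minimum of M_Sham, the shares were 5.53% in F_Stroke, 4.29% in M_Stroke, 0.112% in F_Sham and 0.0961% in M_Sham. Both stroke pools thus lay above both sham pools with and without the common minimum, and the values are a description, since the share follows from the rule.

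The median mitochondrial share of these barcodes was 13.01% in F_Sham, 18.2% in F_Stroke, 11.9% in M_Sham and 18.0% in M_Stroke, and the highest was 91.5%, in F_Stroke. Microglia at 10% or less had medians of 2.10%, 4.93%, 1.19% and 4.53% in the same order. A total of 465 barcodes lay over 20%, of which 256 were from F_Stroke, 199 from M_Stroke and 10 from F_Sham.

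A high share went mainly with fewer other molecules. The median number of UMIs outside the mitochondrial genes was 1054.5 against 5994 in F_Sham, 1593 against 8248 in F_Stroke and 1599 against 8236 in M_Stroke, but 5206 against 5377.5 for the 4 barcodes of M_Sham. The ratio was 0.176, 0.193 and 0.194 in the first 3 of these pools and 0.968 in M_Sham, where no barcode below 4198 UMIs was present. The median number of mitochondrial UMIs differed less, at 169 against 121 in F_Sham, 510 against 418 in F_Stroke and 465 against 382 in M_Stroke. In M_Sham it was 903.5 against 68. In the 3 pools with shallow barcodes the classes thus differed more in other molecules than in mitochondrial ones.

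At the threshold itself, the 31 F_Sham barcodes between 10% and 12% had a median of 1154 UMIs outside mitochondrial genes, and the 56 between 8% and 10% had 1163.5. In F_Stroke the 134 barcodes just above 10% had 6324.5 and the 359 just below had 9686. In M_Stroke the 99 just above had 6199 and the 276 just below had 8843.5. In M_Sham there were 2 barcodes just above, with 4372, and 7 just below, with 5704. In the stroke pools the barcodes just above the threshold were thus deeper than the typical barcode over 10%.

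The stroke pools held barcodes of 2 depths with different composition. In F_Stroke 170 barcodes (29.7%) and in M_Stroke 122 (26.5%) had at least 4198 UMIs, with a median mitochondrial share of 11.7% and 11.8%. In these, the genes of cytosolic ribosomal proteins had a median of 14.7% and 16.3% of the UMIs outside mitochondrial genes, against 13.7% and 13.5% in microglia at 10% or less. The other 402 and 339 barcodes had medians of 4.09% and 3.59%, and 342 (85.1%) and 292 (86.1%) of them lay under 8%. Malat1, a long non-coding RNA that stays in the nucleus (ENSMUSG00000092341, GRCm38 chromosome 19, 5795690 to 5802672, minus strand), ran the other way, with medians of 5.65% and 4.86% in the shallow barcodes, 0.747% and 0.514% in the deep ones and 1.204% and 1.37% at 10% or less. In F_Sham 79 of the 82 barcodes were shallow, with medians of 2.63% for ribosomal proteins and 13.5% for Malat1, against 7.86% and 4.13% at 10% or less. These are shares over cells, which are not replicates, and the 2 depths were not tested against each other.

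**Figure D1:**
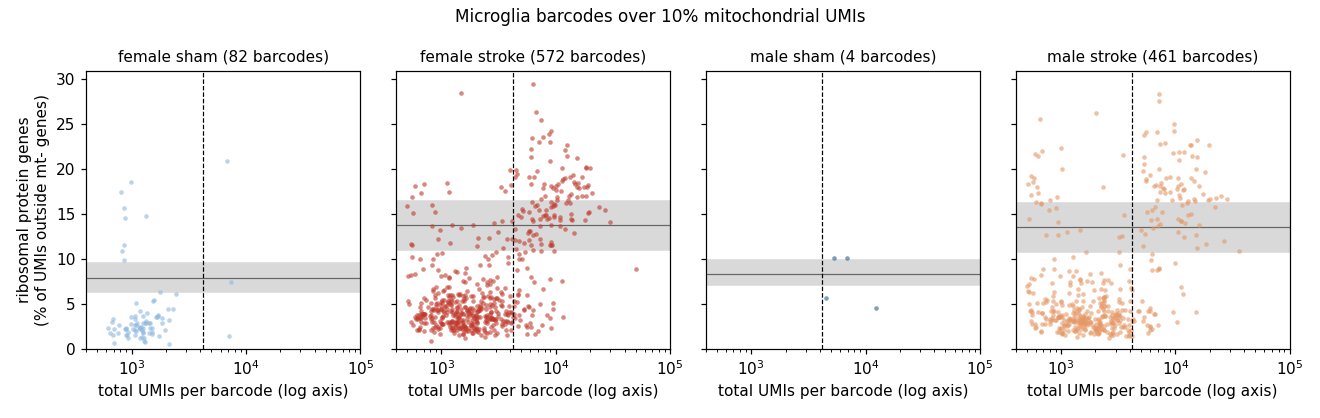
Each point is 1 microglia barcode over 10% mitochondrial UMIs, by its total UMIs (log axis) and the share of ribosomal protein genes among its UMIs outside mitochondrial genes. The line and grey band are the median and quartiles of microglia at 10% or less in the same pool, and the dashed line is the M_Sham minimum of 4198 UMIs. In the stroke pools the points form a shallow group near 4% and a deep group near 15%.

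A few shallow barcodes did not follow this pattern. Among the 79 shallow barcodes of F_Sham, 71 lay under 8% of ribosomal protein UMIs and the other 8 above it. The 6 F_Sham barcodes over 30% mitochondrial share had 17.8% of their summed UMIs from ribosomal protein genes and 0.258% from Malat1, with a median of 594 UMIs outside mitochondrial genes.

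Composition changed along the mitochondrial share, at 15 to 20% in the stroke pools and at 10 to 15% in F_Sham. In F_Stroke the ribosomal protein share of the summed UMIs was 14.1% at a mitochondrial share of 2 to 5%, 15.7% at 5 to 10%, 14.4% at 10 to 15%, 10.8% at 15 to 20% and 4.45% at 20 to 30%. In M_Stroke it was 14.1%, 15.9%, 14.9%, 6.80% and 4.95%. In F_Sham it was 9.40%, 7.91%, 2.98% and 3.33% from 2 to 5% up to 15 to 20%. Genes of the lysosome, the degradative organelle in which cathepsins work, took a larger share over the same range in the stroke pools, with 5.30% at 5 to 10% and 9.13% at 20 to 30% in F_Stroke and 5.56% and 9.59% in M_Stroke. Over 30% they took 7.03% and 6.71%. In F_Sham they took 4.73% at 5 to 10% and 3.45% at 10 to 15%. Immediate early genes, which cells transcribe within minutes of a stimulus, took a smaller share already below the threshold, with 0.486% at 0 to 2% and 0.285% at 5 to 10% in F_Stroke and 0.540% and 0.276% in M_Stroke.

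**Figure D2:**
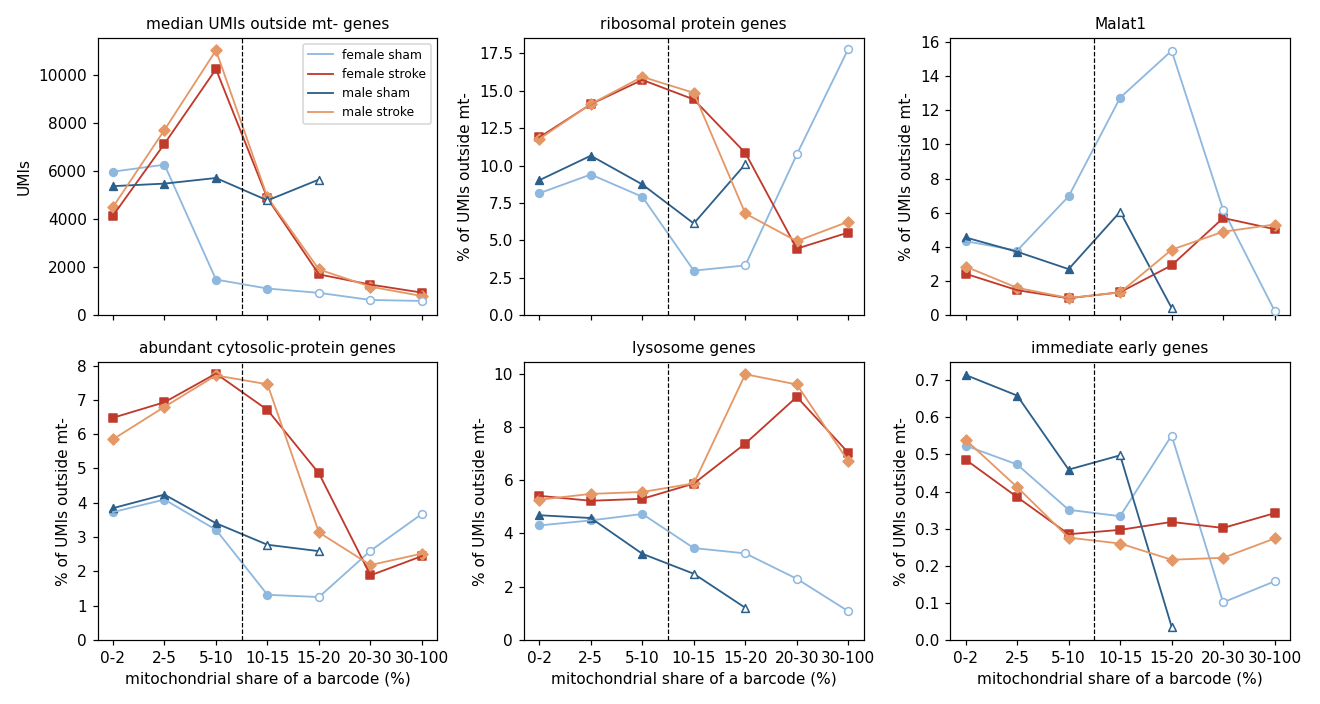
The panels show the median UMIs outside mitochondrial genes per barcode and the share of 5 gene groups in the summed UMIs outside mitochondrial genes, for microglia barcodes in bins of mitochondrial share in each pool. Open symbols are bins with under 20 barcodes, and the dashed line is the 10% threshold. In the stroke pools ribosomal protein genes go from about 15% to about 5% and lysosome genes from about 6% to over 9% between 10 and 30%, while median UMIs peak at 5 to 10%.

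The 13 mitochondrial transcripts were all at a higher level, as the rule requires. mt-Atp6, a subunit of ATP synthase (mitochondrial genome, positions 7927 to 8607), had 260 UMIs per 10000 UMIs in F_Sham, 298 in F_Stroke, 213 in M_Sham and 284 in M_Stroke, against 33.4, 89.9, 16.7 and 84.2 at 10% or less. mt-Nd3, a subunit of complex I (positions 9459 to 9806), had 50.5, 68.0, 37.0 and 66.3 against 8.12, 21.4, 3.12 and 19.8. Over all 13 transcripts and 4 pools the level was 2.66 to 12.8 times that of microglia at 10% or less. The ratio was lower in the stroke pools, where the comparison class itself had the higher level.

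Within the mitochondrial UMIs the make-up shifted little. mt-Atp6 took a larger part in all 4 pools, 16.6% against 14.7% in F_Sham, 17.4% against 16.7% in F_Stroke, 16.1% against 12.3% in M_Sham and 17.04% against 16.4% in M_Stroke. The complex I subunits mt-Nd1, mt-Nd4, mt-Nd4l and mt-Nd5 took a smaller part in all 4 pools, by a ratio between 0.819 (mt-Nd5) and 0.997 (mt-Nd4l). mt-Nd3 was higher in 2 pools and lower in 2. The cytochrome oxidase subunit mt-Co1 was lower in 3 pools, with 10.9% against 12.8% in F_Stroke and 11.7% against 13.5% in M_Stroke.

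**Figure D3:**
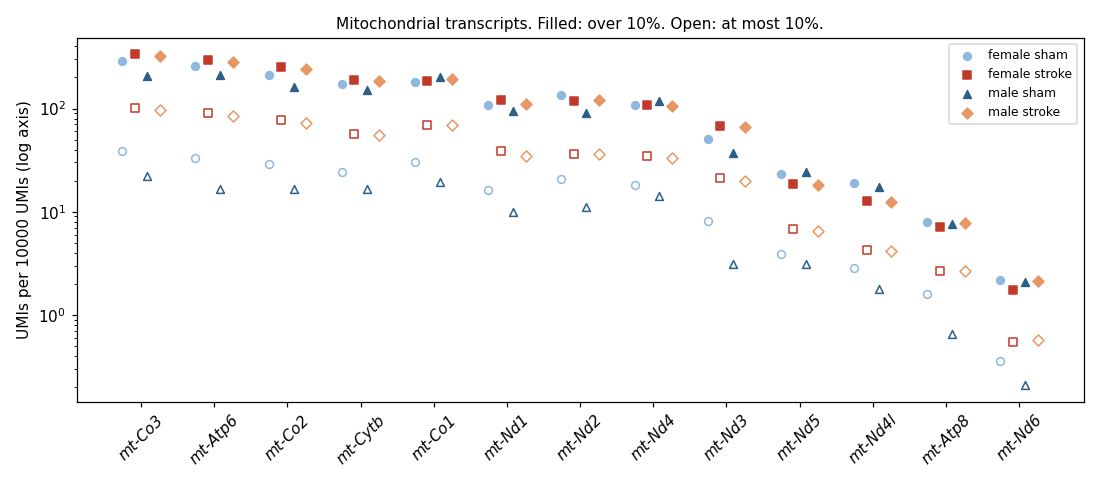
UMIs per 10000 UMIs (log axis) of the 13 mitochondrial transcripts in the summed microglia barcodes over 10% (filled) and at 10% or less (open) of each pool. All 13 lie higher in the filled class, by 2.66 to 12.8 times, which follows from the rule.

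The microglia markers of the rule were lower over 10% in the sham pools, though Fcrls was nearly equal in F_Sham. In the stroke pools they had no common direction, and Fcrls and Olfml3 were higher over 10% in both. The rule sets a floor under their sum in both classes. P2ry12, a purinergic receptor of homeostatic microglia, had 10.7 UMIs per 10000 outside mitochondrial genes in both classes of F_Stroke, 9.46 against 11.3 in M_Stroke, 19.0 against 33.3 in F_Sham and 20.7 against 27.9 in M_Sham. Fcrls had 31.7 against 23.9 in F_Stroke, 32.7 against 24.1 in M_Stroke, 17.3 against 17.5 in F_Sham and 11.5 against 17.2 in M_Sham. The label microglia rests on few molecules in the shallow barcodes, since the median number of marker UMIs was 9 in F_Sham, 16 in F_Stroke, 29 in M_Sham and 17 in M_Stroke, and 62 barcodes (10, 22, 0 and 30) had only 1 or 2.

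A further 28 identity genes that were not part of the rule, such as Cst3, C1qa and C1qb, took 6.66% of UMIs outside mitochondrial genes against 12.7% in F_Sham and 5.46% against 13.9% in M_Sham. In the stroke pools they took 8.79% against 8.20% in F_Stroke and 8.49% against 8.65% in M_Stroke. The share was thus lower over 10% in 3 of 4 pools and slightly higher in F_Stroke (exact sign-flip permutation p = 0.375 over the 4 pools).

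Some barcodes held RNA of another cell type. In 64 of the 1119 the markers of another class gave more UMIs than the 6 microglia markers, namely 16 in F_Sham (19.5%), 22 in F_Stroke (3.85%), 2 of the 4 in M_Sham and 24 in M_Stroke (5.21%). This was seen in 254 of the 14295 barcodes at 10% or less, with 1.28%, 2.81%, 2.00% and 0.883% in the same order. The 10 astrocyte markers summed to 17.7 UMIs per 10000 against 2.42 in F_Sham, 2.54 against 1.06 in F_Stroke, 15.1 against 2.57 in M_Sham and 3.10 against 1.02 in M_Stroke, with all 10 detected except 2 at 0 in M_Sham. The 11 neuron markers summed to 10.6 against 2.99, 0.466 against 0.0902, 17.1 against 3.67 and 0.404 against 0.107, with 1, 1, 4 and 1 of them at 0. The 9 markers of ependyma and choroid plexus summed to 25.8 against 12.6, 54.8 against 8.34, 336 against 49.5 and 42.5 against 2.11, with 4, 2, 2 and 2 at 0. These 3 classes were higher over 10% in all 4 pools.

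Markers of blood-borne cells had no common direction. The 7 markers of monocyte-derived macrophages summed to 0.725 UMIs per 10000 against 1.27 in F_Stroke and 0.449 against 0.644 in M_Stroke. In F_Sham they summed to 0.0992 against 0.172, with 6 of the 7 at 0, and in M_Sham to 0.398 against 0.240, also with 6 at 0. The 10 neutrophil markers summed to 3.47 against 2.15 in F_Sham, 2.10 against 2.54 in F_Stroke, 1.19 against 1.85 in M_Sham and 2.21 against 1.71 in M_Stroke. The 6 B cell markers summed to 3.57 against 3.12, 1.95 against 2.02, 0.796 against 2.91 and 1.58 against 2.07. Over 10%, 7, 6, 8 and 4 of the neutrophil markers and 4, 3, 5 and 4 of the B cell markers were at 0. These sums thus rest on a part of each list. T, NK and erythroid markers were at or near 0 in both classes.

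Summed UMIs over 10% and at 10% or less were compared with the pool as a block (edgeR quasi-likelihood test, 4 pools). At an adjusted p of 0.05, 814 of 12590 genes were higher (6.47%) and 1370 lower (10.9%). The sums were unequal in depth, with 100842 UMIs over 10% in F_Sham, 1932231 in F_Stroke, 25131 in M_Sham and 1536405 in M_Stroke. The split depended on scaling. With TMM scaling the median log2 difference over all genes was -0.09 and 37.3% of calls were higher. With library totals it was 0.11, and 1644 genes were higher (13.1%) and 576 lower (4.58%), so that 74.1% of calls were higher. The lower calls rested on both stroke pools, since without F_Stroke 311 genes were higher and 7 lower, and without M_Stroke 295 and 8. DESeq2 called 348 higher and 72 lower.

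The composition of the sums is given as shares of all UMIs outside mitochondrial genes, which is a scaling by library total. Ribosomal protein genes took a smaller share in all 4 pools, 4.28% against 8.78% in F_Sham, 12.1% against 14.9% in F_Stroke, 7.02% against 9.18% in M_Sham and 12.2% against 14.9% in M_Stroke. The mean difference was -3.04 ± 1.01 percentage points (SD, n = 4 pools, exact sign-flip permutation p = 0.125, 2-sided, the smallest that 4 pools allow). In M_Sham the 4 barcodes over 10% were split, with 10.1%, 10.1%, 5.61% and 4.54%, where the median at 10% or less was 8.31%. A list of 22 genes of abundant cytosolic proteins, among them Actb and Tmsb4x, took 1.51% against 3.90%, 5.60% against 7.39%, 2.73% against 3.88% and 5.996% against 7.21%. Its mean difference was -1.64 ± 0.583 points (SD, n = 4, exact p = 0.125).

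RNAs retained in the nucleus took a larger share in all 4 pools, 14.2% against 5.18% in F_Sham, 3.97% against 2.60% in F_Stroke, 9.88% against 5.02% in M_Sham and 3.71% against 2.43% in M_Stroke. The mean difference was 4.13 ± 3.64 points (SD, n = 4, exact p = 0.125). Malat1 itself took 12.1% against 4.13% in F_Sham, 2.33% against 1.24% in F_Stroke, 4.79% against 4.46% in M_Sham and 2.30% against 1.38% in M_Stroke. These summed shares were larger over 10% in 4 of 4 pools, but in M_Sham this rested on 1 barcode. The 4 barcodes there had 8.28%, 3.67%, 2.92% and 0.426%, with a median of 3.29% against 4.59% at 10% or less. In the fit with TMM scaling the level of Malat1 in M_Sham was lower, and Malat1 did not pass (log2 difference 0.47 ± 0.54, SE, adjusted p = 0.604). In M_Sham most of the list's difference lay in Gm42418, a gene model that overlaps ribosomal RNA sequence, with 4.81% against 0.443%, and in 1 barcode, which held 995 of its UMIs. The list took 28.1% of that barcode and 9.46%, 5.62% and 1.44% of the other 3.

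Lysosome genes took different directions in sham and stroke. They took 6.51% against 5.28% in F_Stroke and 6.90% against 5.51% in M_Stroke, but 3.22% against 4.41% in F_Sham and 2.20% against 4.66% in M_Sham (mean difference -0.254 ± 1.89 points, SD, n = 4, exact p = 1). Genes for splicing and nuclear proteins took a larger share in all 4 pools, 1.52% against 1.02% in F_Sham, 0.880% against 0.710% in F_Stroke, 1.15% against 0.974% in M_Sham and 0.849% against 0.712% in M_Stroke. The depth of the barcodes moved with all of these shares in 3 of the 4 pools. With the UMI minimum of M_Sham applied to all pools, the pools did not share a sign for the 3 lists given next. The mean difference was then -0.775 points for ribosomal protein genes (lower in 3 of 4 pools, exact p = 0.25), -0.803 points for abundant cytosolic genes (lower in 3, exact p = 0.25) and 2.29 points for nuclear-retained RNAs (higher in both sham pools, lower in both stroke pools, exact p = 0.5).

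**Figure D4:**
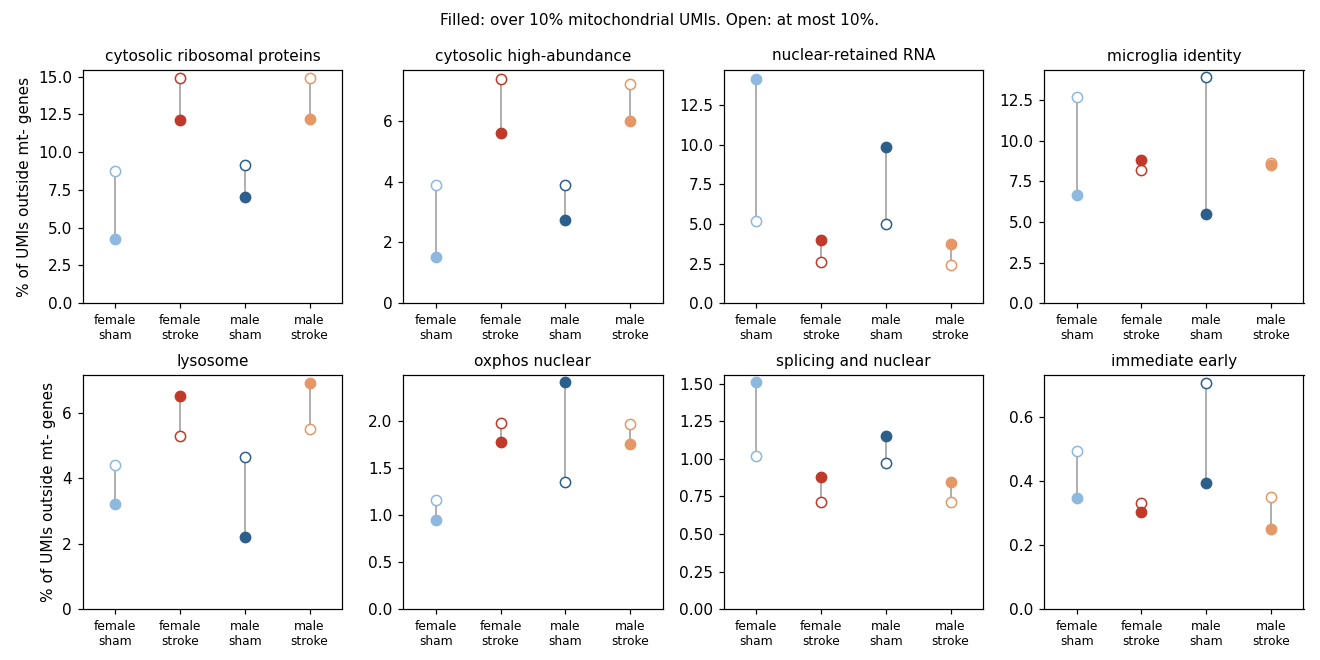
Share of 8 gene lists in the summed UMIs outside mitochondrial genes, for microglia barcodes over 10% mitochondrial UMIs (filled) and at 10% or less (open) in each pool. Ribosomal protein and abundant cytosolic genes lie lower and nuclear-retained RNAs higher over 10% in all 4 pools, and lysosome genes lie higher in both stroke pools and lower in both sham pools.

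In the fit over 4 pools, levels are given as CPM, counts per 1000000 UMIs outside mitochondrial genes after TMM scaling. Levels over 10% in M_Sham can rest on few UMIs, with 13 for Rgs10, 7 for ZsGreen, 5 for Slc1a2 and 2 for Gng10. The largest falls included Rgs10, a regulator of G protein signalling (ENSMUSG00000030844, GRCm38 chromosome 7, 128373621 to 128418758), which had 309 against 1395 CPM in F_Sham, 836 against 1199 in F_Stroke, 318 against 1606 in M_Sham and 747 against 1322 in M_Stroke. It was lower in all 4 pools and fell by 1.33 ± 0.37 on the log2 scale (adjusted p = 0.00418). Gng10, a G protein gamma subunit, fell by 1.35 ± 0.34 on the log2 scale (adjusted p = 0.00127).

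Tyrobp, the adaptor through which the receptor Trem2 signals, had 682 against 2831 CPM in F_Sham, 3300 against 3969 in F_Stroke, 513 against 3315 in M_Sham and 3037 against 4124 in M_Stroke. Over the 4 pools the log2 difference was -1.26 ± 0.43 (adjusted p = 0.0249), and in deep stroke barcodes it was 0.04 ± 0.08. The tubulin gene Tuba1b fell by 1.16 ± 0.35 on the log2 scale and Arpc2, a subunit of the actin-nucleating Arp2/3 complex, by 1.14 ± 0.34.

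The transcript of the sorting reporter, ZsGreen, had 174 against 659 CPM in F_Sham, 1545 against 2257 in F_Stroke, 171 against 731 in M_Sham and 1580 against 2189 in M_Stroke. It was lower in all 4 pools, by 1.07 ± 0.39 on the log2 scale (adjusted p = 0.0367), but did not pass with library totals (adjusted p = 0.0646). In deep stroke barcodes its log2 difference was -0.05 ± 0.08.

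Lgals3, which encodes galectin-3, a lectin of activated phagocytes (chromosome 14, 47367751 to 47386160), had 71.3 against 197 CPM in F_Stroke and 80.7 against 127 in M_Stroke. It had no UMI over 10% in F_Sham and M_Sham, where a count of 0 allows up to 23.5 and 71.4 CPM, and had 4.80 and 24.98 CPM at 10% or less. It fell by 1.10 ± 0.15 on the log2 scale over the 4 pools (adjusted p = 1.08e-10), while in the sham pools a difference was not detectable at this depth.

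The largest rises were in genes of other brain cells. Slc1a2, the glutamate transporter of astrocytes, had 484 against 11.97 CPM in F_Sham, 19.7 against 0.939 in F_Stroke, 122 against 21.2 in M_Sham and 69.7 against 3.03 in M_Stroke (log2 difference 4.57 ± 0.20). Mt3, a metallothionein of astrocytes and neurons, had 388 against 13.03, 85.2 against 9.52, 537 against 58.3 and 96.9 against 5.34 (3.78 ± 0.16). Ttr, the transthyretin of the choroid plexus, which was chosen after its values were seen, had 1926 against 1179, 5401 against 912, 18345 against 4922 and 4454 against 248 (2.33 ± 0.46). All 3 were higher in all 4 pools. Ptgds, a prostaglandin D synthase (3.47 ± 0.16), Clu, which encodes clusterin (2.94 ± 0.18), and Enpp2, the autotaxin of the choroid plexus (2.78 ± 0.24), rose too.

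In the stroke pools and M_Sham a few barcodes held most of the Ttr UMIs. The 3 barcodes with the most Ttr held 92.6% of its UMIs over 10% in F_Stroke, 94.5% in M_Stroke and 99.2% in M_Sham, but 30.04% in F_Sham. M_Sham had only 4 barcodes over 10%. For Enpp2 the top 3 held 97.04% in F_Stroke, 93.8% in M_Stroke and 50% in F_Sham. For Mt3 they held 72.8%, 56.8% and 53.1%, and for Slc1a2 32.4%, 41.1% and 59.0%. At least 1 Ttr UMI was present in 87.8% of the F_Sham, 66.3% of the F_Stroke, 100% of the M_Sham and 48.2% of the M_Stroke barcodes over 10%. It was present in 93.9%, 78.1%, 99.9% and 64.7% at 10% or less, where the median barcode was deeper. Slc1a2 was present in 17.1% of the F_Sham barcodes against 4.47%, in 3.15% against 0.729% in F_Stroke and in 5.21% against 1.67% in M_Stroke. Leaving out barcodes led by another cell type gave 685 genes higher and 1151 lower. Of the genes tested with and without them, 481 of 601 higher calls (80.0%) and 1061 of 1367 lower calls (77.6%) remained.

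No nuclear gene of the respiratory complexes or ATP synthase was higher. Of 75 tested, 0 were higher and 13 lower, where 6.47% of all genes were higher and 10.9% lower, with a median log2 difference of -0.38 against -0.09. At an unadjusted p under 0.05, 0 were higher and 30 lower, and DESeq2 called none in either direction. Cox4i1, a subunit of cytochrome oxidase, had 420.2 against 463 CPM in F_Sham, 1012 against 1119 in F_Stroke, 464 against 572 in M_Sham and 962 against 1119 in M_Stroke and did not pass (-0.19 ± 0.34). Its order turned in 3 of these pools without TMM scaling. Cox8a (0.00 ± 0.33) and Atp5e of ATP synthase (-0.45 ± 0.33) did not pass either.

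Of 37 genes of the mitochondrial ribosome, 0 were higher and 26 lower (median -0.51), among them Mrps21 (-0.49 ± 0.17) and Mrpl33 (-0.48 ± 0.18, adjusted p = 0.0451). With library totals 11 of 37 were lower and DESeq2 called none. Of 31 genes for import and quality control 0 were higher and 13 lower, among them Slc25a5, an ADP/ATP carrier (-0.86 ± 0.31, adjusted p = 0.0338, or 0.0556 with library totals). With library totals 6 of these 31 were lower and with DESeq2 1. Of 23 genes for mitophagy and mitochondrial dynamics 6 were lower, among them Fis1, which acts in mitochondrial fission (-0.64 ± 0.20), while Gabarap, of the autophagosome, missed the threshold (-0.87 ± 0.33, adjusted p = 0.0504). With library totals 2 of these 23 were higher and 4 lower, and DESeq2 called none.

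Among 26 genes that express the mitochondrial genome, Gfm2, which recycles mitochondrial ribosomes, was higher with TMM scaling (0.76 ± 0.14), where library totals gave 3 higher and DESeq2 none. The 3 lower ones were Slirp, which binds mitochondrial messenger RNA (-0.56 ± 0.15), Tfam, which packages mitochondrial DNA, and Mrpl12. Among all genes 6.47% were higher and 10.9% lower, and the counts of this list lay near those shares. Of 23 genes of the citric acid cycle and fatty acid oxidation, Suclg1, Mdh2, Acadm, Acadl and Etfb were lower, with 1 lower with library totals and none with DESeq2.

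The remaining lists are read against 6.47% higher and 10.9% lower among all genes. Immediate early genes had 11 of 22 lower and none higher, among them Fos, which was chosen after its values were seen (-0.77 ± 0.19, adjusted p = 0.00104), while Jun did not pass (-0.71 ± 0.34, adjusted p = 0.13). Genes of G2 and M phase had 12 of 24 lower, among them Ube2c, which drives exit from mitosis (-0.61 ± 0.14), and genes of S phase 9 of 23, among them Pcna (-0.51 ± 0.16). Type I interferon genes had 9 of 26 lower, with Ifitm3 short of the threshold (-0.71 ± 0.27, adjusted p = 0.0506). With library totals these 4 lists had 5, 8, 3 and 6 lower, and with DESeq2 1, 0, 0 and 0.

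Genes of p53 and apoptosis had 5 of 26 lower (Bak1, Bcl2a1b, Bid, Bad and Cdkn1a) and 0 higher, with Bcl2a1b at -0.80 ± 0.24 and Bax without a call (-0.49 ± 0.19, adjusted p = 0.0557). In the integrated stress response Vldlr was higher and its transcription factor Atf4 (-0.57 ± 0.15), Psat1 and Shmt2 were lower, of 16. Of 12 heat shock genes Dnajb1 was lower, and the chaperone Hspa5 did not pass (-0.26 ± 0.37). Of 14 hypoxia genes Hmox1 was lower, with Hif1a at -0.48 ± 0.20 and an adjusted p of 0.088. Of 16 glycolysis genes Pfkp was higher and Gapdh lower (-1.04 ± 0.39, adjusted p = 0.0419, or 0.0727 with library totals). These lists had at most 1 gene higher each with TMM scaling, where 6.47% of all genes were higher and 10.9% lower. Whether any of these lists departed from those shares was not tested. With library totals they had, in the order given, 2, 1, 0, 1 and 3 higher and 1, 2, 0, 0 and 0 lower, where 13.1% and 4.58% of all genes were. DESeq2 called 0, 1, 0, 0 and 0 higher and 0, 0, 2, 0 and 1 lower.

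Of 24 genes of disease-associated microglia Igf1, Gpnmb, Lgals3 and Fabp5 were lower, and of 18 chemokines and cytokines Ccl7, Ccl12, Cxcl10 and Il1a. Of 16 genes that sense nucleic acid Casp1 and Zbp1 were lower. Of 31 lysosome genes Npc1 was higher and 2 subunits of the proton pump, Atp6v0d1 and Atp6v1a, were lower. Of 28 microglia identity genes Tyrobp and Aif1 were lower. Among all genes 6.47% were higher and 10.9% lower. With library totals these lists had, in the order given, 2, 0, 2, 2 and 0 higher and 2, 2, 0, 1 and 1 lower. DESeq2 called 1, 0, 0, 0 and 1 lower and none higher.

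Of 15 nuclear-retained RNAs Neat1, Xist, Mir142hg, Snhg11 and Meg3 were higher and none lower. Snhg11 and Meg3 are also among the neuron markers, whose sum was higher over 10% in every pool. Without barcodes led by another cell type 3 of the 15 were higher, with library totals 11 and with DESeq2 1. Xist, the RNA of X inactivation, had 3877 against 1742 CPM in F_Sham and 3271 against 1671 in F_Stroke (1.42 ± 0.49 over all pools). In the male pools it had 122 against 1.31 in M_Sham, from 5 and 31 UMIs, and 0 against 0.180 in M_Stroke, from 0 and 5 UMIs. Of 26 splicing and nuclear genes none passed in either direction by edgeR with TMM scaling, 3 were higher at an unadjusted p under 0.05, 10 were higher with library totals and 1 with DESeq2. Of abundant cytosolic genes 7 of 22 were lower and of ribosomal protein genes 10 of 82, with none higher, and DESeq2 called 11 and 21. Tmsb4x, which binds actin monomers, missed the threshold (-1.33 ± 0.51, adjusted p = 0.0539).

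The stroke pools, with 92.3% of the barcodes, were also fitted alone, a choice made after the data were seen. Here 1457 of 13366 genes were higher (10.9%) and 1849 lower (13.8%). With 2 pools the fit has 1 residual degree of freedom, so its p-values rest mostly on the spread shared by all genes. All 22 abundant cytosolic genes and 80 of 82 ribosomal protein genes were lower, with medians of -0.47 and -0.40. Of 75 nuclear respiratory genes 59 were lower and of 37 mitochondrial ribosome genes 30, with none higher. Of 31 lysosome genes 18 were higher and 3 lower, of 28 identity genes 13 and 7, of 14 nuclear-retained RNAs 9 and 0, and of 26 splicing genes 11 and 2. Malat1 was higher (0.73 ± 0.04), as was Son, a protein of nuclear speckles (0.66 ± 0.06).

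The stroke barcodes were then split by depth in both classes. The deep set held the 170 and 122 barcodes with at least 4198 UMIs against 2906 and 2725 at 10% or less. The shallow set held 291 F_Stroke and 239 M_Stroke barcodes with 500 to 2000 UMIs outside mitochondrial genes against 183 and 180. The sets also differed in mitochondrial share. Over 10% its median was 11.7% in F_Stroke and 11.8% in M_Stroke in the deep set, and 23.7% and 22.7% in the shallow set. Whether a difference between the sets follows depth or mitochondrial share was not tested. In the deep set 203 of 13193 genes were higher (1.54%) and 60 lower (0.455%). In the shallow set 242 of 4718 were higher (5.13%) and 389 lower (8.25%), with fewer genes tested because its sums were smaller.

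In the deep set no ribosomal or abundant cytosolic gene passed the test. Of 82 ribosomal protein genes and 22 abundant cytosolic genes edgeR called 0, with medians of 0.02 and -0.06, and 0 and 6 were lower at an unadjusted p under 0.05. Tmsb4x had 25008 against 26503 CPM in F_Stroke and 28833 against 26395 in M_Stroke (0.02 ± 0.09). Malat1 was lower here, with 10269 against 11557 in F_Stroke and 9307 against 12982 in M_Stroke (-0.33 ± 0.09, adjusted p = 0.037). Of 75 nuclear respiratory genes Ndufa13, Cox6c and Atp5g1 were higher and 0 lower. The share of this list at this depth was 2.15% against 2.01% in F_Stroke and 2.16% against 2.01% in M_Stroke. In the sham pools 1 barcode each set the value. F_Sham had 2.13% against 1.19%, from barcodes with 5.69%, 1.87% and 0.267%, and M_Sham had 2.42% against 1.36%, from barcodes with 7.59%, 1.61%, 0.780% and 0.661%.

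Transcripts of other brain cells were among the largest rises of the deep set. Ptgds had 63.1 against 6.11 CPM in F_Stroke and 179.9 against 3.92 in M_Stroke (4.48 ± 0.26), and the astrocyte genes Slc1a2 and Mt3 had log2 differences of 3.89 ± 0.42 and 3.81 ± 0.21. Ttr had 6276 against 707 CPM in F_Stroke and 5505 against 186 in M_Stroke (4.01 ± 0.18). Among all stroke barcodes over 10%, 3 in each pool held over 92% of the Ttr UMIs.

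Immediate early genes were lower in the deep set, 7 of 22 with none higher. Jun, a subunit of the AP-1 transcription factor, had 442 against 538 CPM in F_Stroke and 320.3 against 601 in M_Stroke (-0.58 ± 0.10, adjusted p = 2.77e-04). Junb had 245 against 320.2 and 191 against 325 (-0.56 ± 0.10), and Fos had 95.7 against 111 and 48.0 against 106 (-0.57 ± 0.14, adjusted p = 0.0188). Each was lower in both pools.

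Plin2, a coat protein of lipid droplets (chromosome 4, 86648386 to 86670060), had 126 against 266 CPM in F_Stroke and 186 against 232 in M_Stroke (-0.70 ± 0.12, adjusted p = 1.75e-04). Lpl, the lipoprotein lipase, had 242 against 218 and 387 against 207 (0.53 ± 0.11), and the lipid carrier Apoe had 3309 against 3176 and 4971 against 2511 (0.52 ± 0.11). The differences of Lpl and Apoe lay mostly in M_Stroke.

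The chemokine Ccl4 had 686 against 419.8 CPM in F_Stroke and 422 against 371 in M_Stroke (0.46 ± 0.10, adjusted p = 0.00243). Of 19 chemokines and cytokines Ccl2, Ccl3, Ccl4 and Ccl6 were higher and Ccl7 lower. Of 24 genes of disease-associated microglia Apoe, Lpl, Cd63, Ctsl and Csf1 were higher, and Spp1, Gpnmb, Lgals3 and Fabp5 lower. Lgals3 had 65.9 against 157 and 78.2 against 101 (-0.85 ± 0.14). Spp1, which encodes osteopontin, had 1903 against 3189 in F_Stroke but 3480 against 3578 in M_Stroke (-0.39 ± 0.10), so that its difference lay in F_Stroke.

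In the shallow set ribosomal and cytosolic genes were lower against barcodes of like depth. Of 81 ribosomal protein genes 73 were lower (median -0.89) and of 22 abundant cytosolic genes 18 (median -0.91), with none higher. Tmsb4x had 5832 against 13644 CPM in F_Stroke and 4712 against 13096 in M_Stroke (-1.35 ± 0.09, adjusted p = 3.03e-12). Actb, beta-actin, had 3572 against 8812 and 3314 against 8011 (-1.29 ± 0.09), and Tmsb10, a relative of Tmsb4x, had 50.1 against 201 and 52.4 against 163 (-1.82 ± 0.31). All 3 were lower in both pools.

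Of 30 lysosome genes 13 were higher in the shallow set and Atp6v0d1 lower. Ctsd, the protease cathepsin D, had 21582 against 14560 CPM in F_Stroke and 25596 against 13846 in M_Stroke (0.73 ± 0.09, adjusted p = 6.02e-07). Psap, the precursor of the saposins, which help lysosomal enzymes digest lipids, had 4294 against 2842 and 4688 against 2587 (0.73 ± 0.10).

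Lrp1, an endocytic receptor (ENSMUSG00000040249, chromosome 10, 127538161 to 127621148), had 1723 against 899.7 CPM in F_Stroke and 1808 against 740.4 in M_Stroke (1.11 ± 0.12). Csf1r, the receptor for the growth factor microglia depend on, had 5742 against 3805 and 5686 against 3465 (0.65 ± 0.10). Both were higher in both pools, and Lrp1 was also higher in the deep set (0.35 ± 0.09, adjusted p = 0.0162). Among the 28 identity genes Csf1r, Tgfbr1, Slc2a5, Lgmn, Itgam and Cd81 were higher, and Cst3, C1qc, Tyrobp, Aif1 and Fcer1g lower. Lrp1, Csf1r, Psap, Plin2, Spp1, Apoe, Lpl, Tmsb10 and Junb, like Fos, were chosen after their values were seen.

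Some nuclear transcripts were higher in the shallow set. Of 11 nuclear-retained RNAs Malat1, Xist and Dleu2 were higher and Gm42418 lower. Son had 2456 against 1514 CPM in F_Stroke and 2304 against 1402 in M_Stroke (0.71 ± 0.11), and 6 of 26 splicing genes were higher with none lower. Malat1 had 75340 against 58307 and 71355 against 56895 (0.35 ± 0.09), and Gm42418 stood at -0.45 ± 0.09. Of 74 nuclear respiratory genes 25 were lower and 0 higher (median -0.62). Ttr, high in a few deep barcodes, was lower here (-1.12 ± 0.12). Spp1 had 1040 against 1784 and 902 against 3056 (-1.28 ± 0.14), and Lgals3 was also lower (-1.66 ± 0.28).

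**Figure D5:**
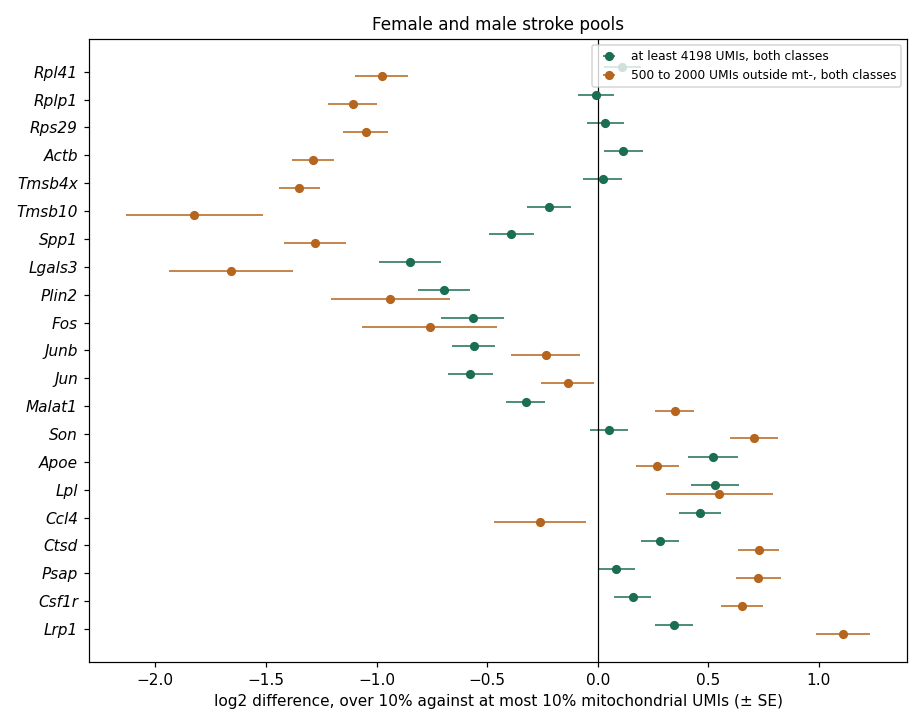
Log2 difference (± SE, edgeR) between stroke microglia barcodes over 10% and at 10% or less, for 21 genes, in barcodes of at least 4198 UMIs and in barcodes with 500 to 2000 UMIs outside mitochondrial genes. Ribosomal, actin and thymosin genes lie near 0 in deep and near -1 to -2 in shallow barcodes, Lgals3 and Plin2 lie below 0 in both, and Lrp1 lies above 0 in both. The shallow barcodes over 10% also had a higher median mitochondrial share than the deep ones.

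Shallow barcodes of F_Sham gave other values. With 500 to 2000 UMIs outside mitochondrial genes, 77 barcodes over 10% had 3.41% ribosomal protein UMIs and 274 at 10% or less had 2.58%. Abundant cytosolic genes took 1.35% and 1.31%, nuclear-retained RNAs 15.2% and 15.3% and lysosome genes 3.39% and 3.77%. In F_Stroke the same comparison gave 4.56% and 7.78% for ribosomal proteins, 1.95% and 3.95% for cytosolic genes, 9.07% and 7.61% for nuclear-retained RNAs and 7.55% and 5.87% for lysosome genes. M_Stroke had 4.23% and 7.46%, 1.84% and 3.76%, 8.29% and 7.35%, and 7.97% and 5.50%. M_Sham had no barcode of this depth, so whether sham and stroke differ was not tested in this window.

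At equal depth the number of detected genes was close in both classes. With every barcode thinned to 400 UMIs outside mitochondrial genes, the median was 296 genes over 10% against 307 in F_Sham, 300.5 against 304 in F_Stroke, 316 against 302 in M_Sham and 296 against 303 in M_Stroke. Thinning left out 16 barcodes of F_Stroke and 25 of M_Stroke.

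The last comparison asked whether the difference between the classes itself differed between stroke and sham. The interaction test (edgeR) called 191 genes (1.52%) with a higher signed difference after stroke and 79 (0.627%) with a lower one. With library totals it called 33 (0.262%) and 98 (0.778%), so that 70.7% of calls were of the first kind with TMM scaling and 25.2% with library totals. A total of 110 genes were called under both scalings, 33 higher and 77 lower after stroke. Tyrobp, whose levels stand above, had an interaction of 1.92 ± 0.33 (adjusted p = 1.20e-05) with TMM scaling and 1.57 with library totals. Rgs10 had 1.55 ± 0.30 and 1.24, and Gng10 had 2.11 ± 0.39 and 1.81. These 3 were lower over 10% in all pools, by more in the sham pools.

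A lysosomal and a complement gene differed between treatments as well. Ctss, cathepsin S, had 3028 against 6896 CPM in F_Sham and 1563 against 8020 in M_Sham, but 6601 against 6111 in F_Stroke and 6716 against 6763 in M_Stroke (interaction 1.72 ± 0.34). C1qa, of the complement complex C1q, had 4170 against 8914 and 2638 against 10550 in the sham pools, and 10526 against 10733 and 10399 against 11464 in the stroke pools (1.42 ± 0.35). Both were lower over 10% in both sham pools and near the comparison class in both stroke pools, where the order of C1qa, and in M_Stroke that of Ctss, turned with the scaling. With library totals Ctss kept its call (adjusted p = 0.0333), and C1qa did not (adjusted p = 0.277).

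The sham side of this test rests on 82 and 4 barcodes, of which 16 and 2 were led by another cell type, and M_Sham started at a higher UMI total. Treatment, depth and the share of mixed barcodes cannot be told apart here.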

How the data were processed

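The authors deposited, for each of 4 pools, a matrix of UMI counts per gene and cell barcode (32286 features). The deposited counts were made with Cell Ranger 7.1.0 on mm10 per the submitters' processing notes, whereas the file headers name version 6.1.2. The sources used here do not say whether intronic reads were counted or how cells were called. Gene names matched GENCODE M21 (GRCm38) for 99.6% of features, which gave the positions.

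UMIs outside the 13 mitochondrial genes were summed per pool and class (over 10%, at 10% or less), giving 8 sums, and tested in R 4.3.3 with edgeR 4.0.16 (TMM, filterByExpr with a minimum count of 10, quasi-likelihood F test, 2-sided, Benjamini-Hochberg adjusted p of 0.05 over all genes tested). The pool was the block, because both classes of a pool share mice, library and sort. The interaction model added class by treatment. Mitochondrial genes and the 6 rule markers were not tested. Errors of log2 differences are standard errors. Shares of gene lists were compared by an exact sign-flip permutation over the pools, and shares of barcodes have exact Clopper-Pearson 95% intervals. Tables, permutations and figures were made in Python 3.11.15 (scipy 1.17.1, numpy 2.4.6, matplotlib 3.10.9, pandas 2.3.3). DESeq2 1.42.0, library totals, other thresholds, depth windows, thinning and leaving out each pool were alternatives.

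The members, gene lists and marker lists were chosen with earlier results of these data known. Genes named are the 12 largest rises and 12 largest falls with the same sign in 4 pools and a mean of at least 50 CPM, the 3 most abundant genes of each list and the 5 largest interactions each way, described here in part, and genes said to be chosen after their values were seen. On simulated data for 12596 genes with the depths of the 4-pool comparison, 94.8% of genes raised by a log2 change of 2, 70.8% raised by 1, 62.4% lowered by 1 and 79.6% lowered by 2 were called, and 4.59% of calls were false. The simulation changed few genes, as many up as down, and used the dispersions estimated from the data. It therefore cannot show errors that come from the choice of scaling.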

Additional observations from a re-analysis of the deposited data

Results flagged for a closer look

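The difference between microglia barcodes over 10% and at 10% or less was itself tested for a difference between the stroke and the sham pools (edgeR interaction, 2 pools against 2). It was greater after stroke for 191 genes and smaller for 79, and these counts were 33 and 98 with library totals, so that the direction of most calls depends on the scaling. Among the genes described, 21 passed with TMM scaling. A positive value means a signed log2 difference that was higher after stroke.

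Among microglial genes the values were 1.92 for Tyrobp, 1.77 for Cst3, 1.72 for Ctss, 1.46 for C1qb, 1.42 for C1qa, 1.41 for Ctsd, 1.11 for Apoe and 1.09 for Csf1r. Among genes of signalling and the cytoskeleton they were 2.11 for Gng10, 1.55 for Rgs10, 1.67 for Tmsb4x, 1.53 for Tuba1b and 1.5 for Arpc2. Gapdh had 1.24, Rps29 1.11 and the reporter ZsGreen 1.46. Of these 16, Tyrobp, Ctss, Gng10 and Rgs10 also passed with library totals, and the others did not.

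Transcripts of other brain cells had 2.03 for Ttr, 1.71 for Ptgds and 1.02 for Enpp2, of which Ttr and Ptgds passed under both scalings. Gm42418 had -1.44 and passed under both. In M_Sham 1 of the 4 barcodes over 10% held 995 of its UMIs, 25.1% of that barcode's UMIs outside mitochondrial genes, against 0.716 to 1.91% in the other 3. Ccl4 had no UMI over 10% in either sham pool, so its fitted value of 13.6 gives no size. At 10% or less it had 90.7 CPM in F_Sham and 206 in M_Sham, where a count of 0 over 10% allows up to 23.5 and 71.4 CPM.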

How the results depend on the processing

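Genes higher and lower numbered 814 and 1370. They numbered 369 and 550 with barcodes over 20% (3 pools, none of these barcodes in M_Sham), 510 and 867 with at least 1000 UMIs outside mitochondrial genes, 271 and 30 at the UMI minimum of M_Sham, 413 and 411 with at least 60 marker UMIs per 10000, 29 and 19 where few UMIs of other cell types were allowed (the 2 stroke pools, since no sham barcode over 10% remained), 240 and 342 after thinning, 9 and 36 in the window of 500 to 2000 UMIs (3 pools, without M_Sham), 1644 and 576 with library totals and 348 and 72 with DESeq2. Lower genes numbered 901 against microglia at 5% or less and 2551 with no filter on low counts. In the stroke pools alone 1457 were higher, and 203 and 60 passed in deep and 242 and 389 in shallow barcodes. Leaving out 1 pool at a time gave 295 to 982 higher and 7 to 1282 lower.

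Without the replicate block 651 genes were higher and 994 lower, and 53 of 59 genes described kept their call and direction. The block pairs the classes of 1 pool, since both come from the same mice and library.

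Genes with a greater difference after stroke (191) numbered 574 over 20%, 446 at the M_Sham minimum, 33 with library totals, 8 with DESeq2, 119 with no filter and 474 without M_Sham, and those with a smaller one (79) numbered 26 with DESeq2.

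The barcodes numbered 465 over 20%, 299 at the M_Sham minimum and 288 where few UMIs of other cell types were allowed. The geometric mean ratio of median UMIs outside mitochondrial genes was 0.283, with 0.118 over 20% and 0.842 at the M_Sham minimum. Leaving out 1 pool at a time gave 0.188 to 0.331 for it, -3.34 to -2.56 points for ribosomal protein genes and 2.51 to 5.08 points for nuclear-retained RNAs.

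Of genes called over 4 pools, these turned in sign: Enpp2 (-0.54 in the window, -0.69 in shallow stroke barcodes, -0.59 with few UMIs of other types, -0.50 over 20%), Ttr (-0.70 in the window, -1.12 in shallow stroke barcodes, -0.028 over 20%), Mt3 (-0.56) and Tyrobp (0.0164) with few UMIs of other types, Tyrobp in deep stroke barcodes (0.0410), Lgals3 with 60 marker UMIs (0.12) and Xist over 20% (-0.43). Another 9 described genes, not called over 4 pools, were called with the other sign in stroke barcodes, among them Malat1 in deep and Csf1r and Ctsd in shallow ones. The cause was not tested. The small sums of the sham pools limit what can be seen there.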
